A study of Mus musculus with 9 samples.

Results

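The WNT genes described here were 40 mouse genes taken by their symbols from the 56691 genes of the deposited tables, and each symbol matched 1 gene. They were 17 ligands, the acyltransferase Porcn and the ligand carrier Wls, the co-receptors Lrp5 and Lrp6, the 3 Dishevelled genes and Ctnnb1, the scaffolds Apc and Axin1, 4 TCF/LEF factors, 4 secreted antagonists and 5 feedback targets. RNA-seq had been performed on BVSC PSCs, a mouse pluripotent stem cell line with a Blimp1-mVenus (BV) and a Stella-CFP (SC) reporter, which were differentiated as embryoid bodies (EBs) to day 5. Cells sorted as BV+ were taken as primordial germ cell-like cells (PGCLCs) and cells sorted as BV- as the surrounding somatic cells. The genotype was either NRF1 overexpression (NRF1 OE), from an Nrf1 cDNA in a doxycycline-inducible p20 lentiviral vector, or an empty vector control (Ctrl). Doxycycline at 1.5 μg/mL was given from day 2 to day 5, to the empty vector as well. There were 2 BV+ NRF1 OE, 2 BV+ Ctrl, 3 BV- NRF1 OE and 2 BV- Ctrl libraries, all from 1 reporter line whose vector-carrying cells were selected with G418 as a population. Before differentiation all PSCs had been kept with LIF, the MEK inhibitor PD0325901 and CHIR99021, an inhibitor of the kinase GSK3 that acts as a WNT agonist, whereas the EB medium was listed without them. The comparisons asked whether the WNT genes differed with NRF1 OE within each population and between BV+ and BV- cells.

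WNT ligands are lipid-modified by Porcn in the endoplasmic reticulum and carried to the cell surface by Wls. At the receiving cell they bind Frizzled receptors with Lrp5 or Lrp6 and, through Dishevelled, halt the Apc and Axin complex that otherwise marks β-catenin (Ctnnb1) for destruction, so that β-catenin enters the nucleus and acts with TCF/LEF factors. In the mouse embryo, WNT3 in the posterior epiblast, together with BMP4, makes cells competent for the germ cell fate, and in PSCs WNT signalling helps to maintain self-renewal.

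The labels were first set against the data. Nrf1 itself was at 95.7 and 99.4 CPM (counts relative to the TMM-scaled size of the library) in the BV+ NRF1 OE libraries and at 91.1 and 90.4 CPM in the BV+ Ctrl libraries. It was at 119, 122 and 126 CPM in the BV- NRF1 OE libraries and at 99.1 and 105 CPM in the BV- Ctrl libraries. The NRF1 OE libraries lay above the Ctrl libraries in both populations, but by only 1.08-fold in BV+ cells (adjusted p = 0.489, edgeR's quasi-likelihood test) and 1.20-fold in BV- cells (adjusted p = 0.0718), so the counts of this gene did not show a large overexpression. NRF1 OE and Ctrl are therefore used below as names of the libraries as labelled.

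The sort was likewise not reflected in most germ cell markers. Prdm1, which encodes BLIMP1 and drives the BV reporter, was between 53.3 and 62.8 CPM in the BV+ libraries and between 42.4 and 62.0 CPM in the BV- libraries. Of 8 PGC markers, 0 passed the test between BV+ and BV- Ctrl cells, while between the NRF1 OE populations Itgb3 was higher and Tfap2c, Dppa3 and Nanos3 were lower in BV+ cells. The summed PGC markers were at 370 to 410 CPM in the BV+ and at 387 to 547 CPM in the BV- libraries. Pou5f1 was between 798 and 1336 CPM in all 9 libraries, so that pluripotency transcripts were abundant on both sides of the sort. BV+ and BV- are used here as names of the sorted fractions.

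The libraries held between 13702162 and 19625460 counts each. They also differed in how counts followed GC content: across 14313 genes, the Spearman correlation of a gene's deviation with its transcript GC content was between -0.560 and -0.465 in the 4 Ctrl libraries, 0.308 and 0.00650 in the BV+ NRF1 OE libraries, and 0.0441, 0.667 and 0.531 in the BV- NRF1 OE libraries. BV- NRF1 OE replicate 2 stood farthest from the Ctrl libraries and was also the shallowest. Since this trend separated NRF1 OE from Ctrl libraries, the NRF1 OE effects on the members called or past the study's threshold are given also with GC content and length offsets, that is, after a smooth trend over GC content and transcript length was removed from each library.

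The ligands were expressed at low levels, and the machinery that receives them was not. Levels between genes are compared here in the deposited FPKM, which are scaled to gene length. The 17 ligands together summed to 1.85 to 5.62 FPKM in a library. Wnt5b, which signals mainly through β-catenin-independent routes, had the highest mean of the ligands over the groups (1.09 FPKM). Its values were 2.13 and 1.48 FPKM in BV+ NRF1 OE, 0.710 and 1.05 in BV+ Ctrl, 1.13, 1.15 and 0.91 in BV- NRF1 OE and 0.430 and 0.830 in BV- Ctrl libraries. By contrast, Ctnnb1 was between 145 and 205 FPKM in every library, with a mean over the groups of 186 FPKM. The other roles were led by Tcf7 (35.8 FPKM), Axin1 (22.5), the antagonist Sfrp2 (21.0), Lrp6 (9.99), Porcn (7.80) and, among the feedback targets, Znrf3 (2.58 FPKM), all as means over the groups. The filter on low counts was passed by 30 members, and the other 10 were given no test. These were Wnt1, Wnt2, Wnt3a, Wnt6, Wnt7a, Wnt8a, Wnt10a, Wnt10b, Wnt16 and Sp5. Wnt3a had at most 1 count in a library and Wnt7a, the highest of these ligands, at most 9. Where such a gene had 0 counts in a library, a level of up to 0.155 to 0.221 CPM was not excluded (counting error only). This range is the CPM of 3 counts at these depths. Wnt3, the ligand named above for the epiblast, passed the filter with 6 to 40 counts in a library, and Wnt8a was at 0 counts in both BV+ NRF1 OE libraries and at 1 to 4 counts in the other libraries.

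**Figure D1:**
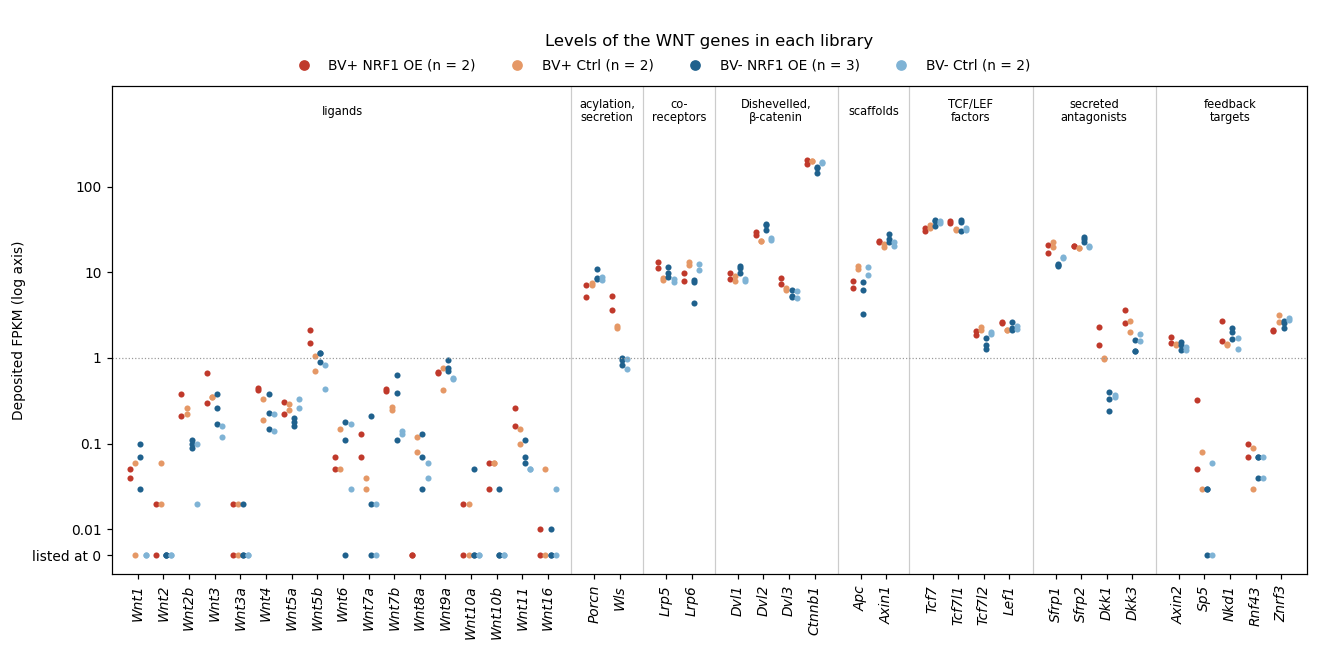
Deposited FPKM (log axis) of the 40 WNT genes, ordered by role; each point is 1 library, coloured by group, and values of 0 are drawn at the mark "listed at 0". The ligands lie mostly below 1 FPKM (dotted line), whereas Ctnnb1 lies between 145 and 205 FPKM, and Wls and Dkk1 separate the BV+ from the BV- libraries.

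The promoters of the members were searched for letters bound by NRF1 and by TCF/LEF factors, on both strands of the 300 bases from 250 before to 50 after the start site (RefSeq, GRCm38.p6). A promoter was listed for 28 of the 40 members (38 promoters). The palindromic core that NRF1 binds was in 0 members' promoters and in 0.971% of 32851 promoters, and a relaxed form that allows any base at its centre, and so includes it, was in those of Ctnnb1 and Dvl1 (2 of the 38 promoters, or 5.26%, against 4.6% of all promoters). The TCF/LEF core CTTTGA, which differs from the core CTTTGT in its last letter, was in 5 of the 38 promoters (13.2%, against 16% of all promoters) and CTTTGT was in 6 (15.8%, against 18.7%). These shares are descriptions and were not tested. The promoters of Dkk1, which held 3 of the TCF/LEF letters, and of Dvl1, with the relaxed NRF1 letters, are shown because both genes passed the test in a comparison below. Each is given 5′ to 3′ on the strand of its gene, with the matched letters of either strand in capitals, for the 250 bases before the start site. Dkk1 is at chr19:30549497-30549746 on the minus strand, with matches that begin 174, 117 and 98 bases before the start site, and Dvl1 at chr4:155847152-155847401 on the plus strand, with a match 39 bases before it.
Dkk1: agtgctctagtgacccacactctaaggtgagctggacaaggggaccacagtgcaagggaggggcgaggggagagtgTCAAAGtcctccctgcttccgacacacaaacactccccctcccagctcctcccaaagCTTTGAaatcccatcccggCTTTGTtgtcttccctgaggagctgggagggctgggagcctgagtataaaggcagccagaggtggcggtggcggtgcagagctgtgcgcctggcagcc
Dvl1: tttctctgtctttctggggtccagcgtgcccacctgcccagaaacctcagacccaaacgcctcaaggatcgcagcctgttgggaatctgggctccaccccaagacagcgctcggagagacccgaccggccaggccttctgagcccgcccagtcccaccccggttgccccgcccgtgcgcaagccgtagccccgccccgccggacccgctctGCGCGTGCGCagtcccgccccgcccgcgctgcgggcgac

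Between the sorted fractions of the NRF1 OE cells, the carrier Wls and 3 of the 4 secreted antagonists were higher in BV+ cells. In all, 5 of the 30 tested members were higher and 1 was lower (edgeR's quasi-likelihood test, adjusted p under 0.05). Of all 16903 genes tested, 13.8% were called, 9.9% as higher and 3.85% as lower. Every BV+ library lay above every BV- library for 3439 of these genes and below for 3301, and for 13 and 7 members. The members' median log2 fold change was 0.28, and that of all genes tested was -0.00. The members' median was 0.15 without BV+ NRF1 OE replicate 1 and 0.14 with the GC content and length offsets, where all genes had -0.10.

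Wls, without which ligands are not secreted, was at 47.0 and 32.2 CPM in BV+ NRF1 OE, 19.3 and 20.1 in BV+ Ctrl, 8.61, 8.84 and 7.52 in BV- NRF1 OE and 6.49 and 8.49 in BV- Ctrl libraries. All BV+ libraries lay above all BV- libraries, and the BV+ NRF1 OE libraries were the highest. With NRF1 OE, Wls was 4.76-fold higher in BV+ than in BV- cells (log2 fold change 2.25, SE 0.179, adjusted p = 1.2e-05, edgeR).

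Dkk1, which blocks signalling by binding the co-receptors Lrp5 and Lrp6, was at 5.67 and 3.43 CPM in BV+ NRF1 OE, 2.29 and 2.36 in BV+ Ctrl, 0.602, 0.810 and 1.01 in BV- NRF1 OE and 0.882 and 0.855 in BV- Ctrl libraries. The BV+ libraries again lay above the BV- libraries without overlap, from 35 to 110 counts against 10 to 17 counts. With NRF1 OE the difference was 5.60-fold (log2 fold change 2.49, SE 0.312, adjusted p = 0.000294, edgeR). Its promoter is the one printed above with 3 TCF/LEF matches, whose part in this difference was not tested.

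Dkk3, a divergent member of the Dickkopf family, was at 8.60 and 12.2 CPM in BV+ NRF1 OE and at 5.54, 4.13 and 4.21 CPM in BV- NRF1 OE libraries. It was 2.24-fold higher in BV+ cells (log2 fold change 1.16, SE 0.220, adjusted p = 0.00494, edgeR). The groups did not overlap, although without BV+ NRF1 OE replicate 2, the higher of that pair, the log2 fold change was 0.89 (adjusted p = 0.0513).

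Sfrp1, a secreted Frizzled-related protein that binds WNT ligands, was at 75.2 and 91.3 CPM in BV+ NRF1 OE, 95.4 and 84.8 in BV+ Ctrl, 52.6, 53.9 and 56.4 in BV- NRF1 OE and 64.6 and 63.4 in BV- Ctrl libraries. It was higher in every BV+ library, and with NRF1 OE by 1.53-fold (log2 fold change 0.62, SE 0.115, adjusted p = 0.00445, edgeR). Sfrp2, the antagonist with the highest mean FPKM over the groups, had the opposite sign, with a log2 fold change of -0.29 (SE 0.107, adjusted p = 0.104), and was called as lower without BV- NRF1 OE replicate 1 (-0.34, adjusted p = 0.0399).

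The other calls were smaller. Porcn was at 15.8 and 21.3 CPM in BV+ NRF1 OE and at 26.2, 25.1 and 33.8 CPM in BV- NRF1 OE libraries, with no overlap, and was lower in BV+ cells (log2 fold change -0.61, SE 0.168, adjusted p = 0.0329, edgeR). Dvl3, a Dishevelled gene, was at 55.4 and 46.3 CPM against 34.0, 34.0 and 41.6 CPM, and was higher (log2 fold change 0.48, SE 0.137, adjusted p = 0.0399). The other Dishevelled genes had the opposite sign and were not called, with -0.29 for Dvl1 (adjusted p = 0.162) and -0.29 for Dvl2 (0.0967). Porcn lost its call without either BV+ NRF1 OE replicate 1 (adjusted p = 0.261), BV- NRF1 OE replicate 3 (0.136) or any of the 4 Ctrl libraries (0.0556 to 0.0687), and Dvl3 without BV+ NRF1 OE replicate 1 (0.283), BV- NRF1 OE replicate 1 (0.0663), either BV+ Ctrl library (0.0776 and 0.0779) or BV- Ctrl replicate 1 (0.0617). By the threshold of the study, which asks for a p under 0.05 before adjustment and for a change of more than 0.58 on the log2 scale in either direction, 7 members were higher and 1 was lower. Of all genes tested 14.7% passed it, 11.4% as higher and 3.28% as lower. These included 3 low ligands that did not pass the adjusted test: Wnt2b (log2 fold change 1.53, SE 0.50, adjusted p = 0.0667, and 0.0485 without BV- Ctrl replicate 2), Wnt11 (1.42, SE 0.467, adjusted p = 0.0675) and Wnt5b (0.74, SE 0.291, adjusted p = 0.118, and 0.44 without BV+ NRF1 OE replicate 1).

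With GC content and length offsets, 12 members were called between the NRF1 OE fractions, 7 of them higher and 5 lower, against 27% of all genes tested in that fit. The effect was 2.05 on the log2 scale for Wls (adjusted p = 1.47e-05, edgeR), 2.43 for Dkk1 (0.000177), 1.14 for Dkk3 (0.00212) and 0.51 for Sfrp1 (0.00113). Of the Dishevelled genes, Dvl3 was again higher (0.40, 0.0256), whereas Dvl1 (-0.46, 0.00216) and Dvl2 (-0.45, 0.000323) were called as lower. Porcn was also lower (-0.60, 0.0263). The ligands Wnt2b (1.48, 0.0384) and Wnt11 (1.37, 0.0393) were called as higher, both with few counts. Wnt2b was at 31 and 16 counts in BV+ NRF1 OE and at 8, 5 and 7 in BV- NRF1 OE libraries. Wnt11 was at 21 and 12 against 4, 6 and 5 counts.

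The same fractions were compared in Ctrl cells. Only Wls was called, as higher, of the 30 tested members, against 1.12% of all genes tested, with 1.1% higher and 0.0237% lower. It was 2.62-fold higher in BV+ cells (log2 fold change 1.39, SE 0.206, adjusted p = 0.00784, edgeR), and 1.32 with the offsets (adjusted p = 0.0130). The call was lost without BV+ Ctrl replicate 2 (log2 fold change 1.36, adjusted p = 0.0679) or without BV- Ctrl replicate 1 (1.21, adjusted p = 0.146). By the study's threshold 4 members were higher, against 5.74% of all genes tested (4.85% higher and 0.893% lower), namely Wls and 3 that did not pass the adjusted test. These were Dkk1 (log2 fold change 1.42, SE 0.368, adjusted p = 0.124, and 0.0420 without BV- NRF1 OE replicate 2), Wnt2b (1.91, SE 0.626, adjusted p = 0.306) and Wnt3 (1.26, SE 0.548, adjusted p = 0.599). Wnt2b was at 14 and 20 counts in the BV+ Ctrl and at 1 and 8 counts in the BV- Ctrl libraries, and its value was 1.19 without BV- Ctrl replicate 1 and 3.79 without BV- Ctrl replicate 2. The members' median log2 fold change was 0.07, beside -0.01 for all genes tested. It was 0.046 without BV- Ctrl replicate 2, 0.13 without BV+ Ctrl replicate 1, and -0.037 with the offsets, beside -0.052 for all genes.

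Markers of other cell types moved with the sort. In these sorted pools of cells, fewer cells of a type and less RNA per cell cannot be told apart. Of 4 neuroectoderm markers, Sox1 and Nes were higher in BV+ than in BV- NRF1 OE cells and only Nes in Ctrl cells, and the list summed to 120 and 177 CPM in BV+ NRF1 OE, 70.3 and 78.9 in BV+ Ctrl, 42.7 to 58.1 in BV- NRF1 OE and 34.4 and 45.2 in BV- Ctrl libraries. Of 6 endothelium and blood markers, Kdr and Cdh5 were higher in BV+ cells with either vector. Kdr was at 25.5 and 17.1 CPM in BV+ NRF1 OE, 6.55 and 8.55 in BV+ Ctrl, and 1.42 to 2.56 CPM in BV- libraries. The list as a whole summed to 134 to 168 CPM in BV+ and 159 to 174 CPM in BV- libraries. Most of each sum was Pecam1, which was at 100 to 171 CPM over all libraries. The blood markers Gata1, Hbb-bh1 and Hba-x were at or below 1.33 CPM in all libraries. Of 7 primitive streak and mesoderm markers, Hand1 was higher in BV+ NRF1 OE cells, and the list summed to 12.6 to 17.6 CPM in BV+ and 8.69 to 15.9 CPM in BV- libraries, with Mesp1 at 0 counts in 3 libraries. Like Wls and Dkk1, Nes, Kdr and Cdh5 were highest in the BV+ NRF1 OE libraries, and their part in the results was not tested. Of 8 endoderm markers, Afp and Cubn were lower in BV+ NRF1 OE cells. The list summed to 70.3 to 131 CPM in BV+ and 89.4 to 259 CPM in BV- libraries. Of 5 naive PSC markers only Esrrb was called, as lower, and only in BV+ NRF1 OE cells, and the list summed to 699 to 930 CPM in BV+ and 865 to 925 CPM in BV- libraries.

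**Figure D2:**
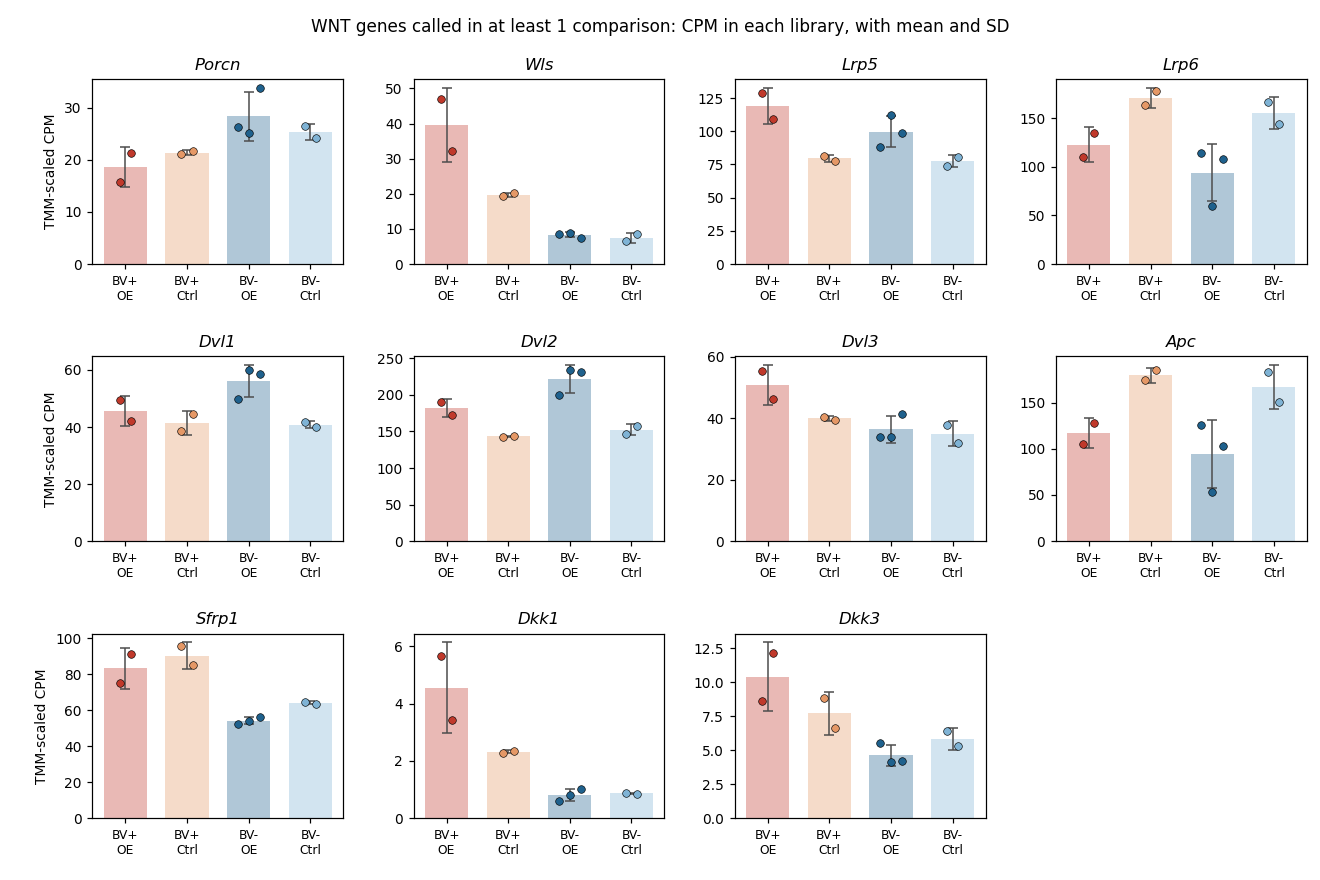
TMM-scaled CPM of the 11 WNT genes called in at least 1 comparison; points are libraries, bars are group means and error bars are SD, with 2 libraries in each group except 3 in BV- NRF1 OE. Wls and Dkk1 are high in BV+ and highest in BV+ NRF1 OE libraries, and Lrp6 and Apc are lowest in 1 BV- NRF1 OE library.

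In BV+ cells, NRF1 OE libraries were compared with the same BV+ Ctrl libraries as above, so the comparisons share libraries. Of the 30 tested members, 2 were higher with NRF1 OE and 0 were lower by edgeR, against 8.02% of all genes tested (6.24% higher and 1.78% lower). An unadjusted p under 0.05 was found for 10 members, against 32.5% of all genes. DESeq2 called 3 members, against 14.9% of all genes. The ones called as higher by edgeR were Wls and Lrp5. Wls was 2.01-fold higher (log2 fold change 1.00, SE 0.191, adjusted p = 0.0188), with its values in the libraries as given above. Lrp5, a co-receptor, was at 129 and 109 CPM with NRF1 OE and at 81.5 and 77.8 CPM in Ctrl, without overlap. It was 1.49-fold higher (log2 fold change 0.58, SE 0.137, adjusted p = 0.0340). Without overlap, 15 members lay above Ctrl and 3 below, as did 6433 and 5413 of all 16903 genes tested. In the same comparison Nes (log2 fold change 1.60), Kdr (1.49) and Cdh5 (1.59), and the PGC markers Dppa3 (0.64) and Itgb3 (1.02), were higher and Cubn (-1.59), Pdgfra (-1.17), Zfp42 (-0.67) and Klf4 (-0.67) were lower. Of the 8 PGC markers, 5 had a positive and 3 a negative log2 fold change, and 0 were called as lower. The part of these markers in the results was not tested. Both calls were lost without BV+ NRF1 OE replicate 1, with log2 fold changes of 0.71 (adjusted p = 0.227) and 0.46 (0.306), and without BV+ Ctrl replicate 1 (0.152 and 0.169) or replicate 2 (0.193 and 0.260). Lrp5 also lost its call without BV- NRF1 OE replicate 3 (adjusted p = 0.0652) or BV- Ctrl replicate 1 (0.0590), which are not in the comparison but share its fit. With GC content and length offsets, Wls had a log2 change of 1.26 (adjusted p = 0.00498) and Lrp5 of 0.42 (0.0323), and 5 members were called, against 12.6% of all genes tested in that fit.

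By the study's threshold, 4 members were higher and 0 lower with NRF1 OE in BV+ cells, against 17% of all genes tested (9.78% higher and 7.2% lower). Besides Wls these were Wnt5b, Dkk1 and Nkd1, a feedback inhibitor that binds Dishevelled. Wnt5b, at 5.72 and 3.92 CPM against 1.83 and 2.73 CPM, had a log2 change of 1.06 (SE 0.328, adjusted p = 0.0647, edgeR), which was 0.64 with the offsets (0.164). Dkk1 had a log2 change of 0.97 (SE 0.307, adjusted p = 0.0697), which was 1.10 with the offsets (0.0388). Nkd1, at 12.6 and 7.13 CPM against 6.42 and 6.24 CPM, had a log2 change of 0.64 (SE 0.264, adjusted p = 0.125), which was 0.46 with the offsets (0.190). Without BV+ NRF1 OE replicate 1 the value was 0.17 for Nkd1 (0.754) and 0.56 for Dkk1 (0.490). Without BV+ NRF1 OE replicate 2, Wnt5b (adjusted p = 0.0458), Dkk1 (0.0326) and Nkd1 (0.0296) were called. Without BV- NRF1 OE replicate 2, 8 members were called. They included Wnt5b (0.0185) and Dkk1 (0.0284) as higher, and Lrp6 (log2 fold change -0.50, 0.00537) and Znrf3 (-0.45, 0.0236) as lower. In that fit 29.4% of all genes were called, against 8.02% with all libraries. The members' median log2 fold change was 0.32, against 0.04 for all genes tested, and with the offsets it was 0.03 against -0.02.

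In BV- cells, 2 members were higher and 2 lower with NRF1 OE, against 17.2% of all genes tested (10.2% higher and 6.98% lower). The higher ones were Dishevelled genes, which pass the signal from the receptors to the Axin complex. Dvl2 was at 200, 234 and 231 CPM with NRF1 OE and at 147 and 158 CPM in Ctrl (log2 fold change 0.54, SE 0.106, adjusted p = 0.0317, edgeR). Dvl1 was at 49.8, 59.97 and 58.6 CPM against 41.7 and 40.0 CPM (log2 fold change 0.46, SE 0.131, adjusted p = 0.0410). Neither overlapped between groups, which held for 9 members above and 7 below Ctrl. Of all 16903 genes tested, 4968 lay above and 4672 below without overlap.

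The lower ones were the co-receptor Lrp6 and Apc, the scaffold without which β-catenin accumulates. Lrp6 was at 114, 60.2 and 108 CPM with NRF1 OE and at 167 and 144 CPM in Ctrl (log2 fold change -0.72, SE 0.217, adjusted p = 0.0447, edgeR). Apc was at 125, 53.6 and 103 CPM against 184 and 150 CPM (log2 fold change -0.83, SE 0.258, adjusted p = 0.0488). All NRF1 OE libraries were below the Ctrl libraries, and replicate 2 was the lowest for both genes. Without that replicate the log2 fold changes were -0.51 for Lrp6 (adjusted p = 0.0129) and -0.57 for Apc (0.0113), and Dvl1 had 0.38 (0.0549). Without BV- NRF1 OE replicate 1, 9 members were called. They included Axin1 (log2 fold change 0.33, adjusted p = 0.0378), Sfrp2 (0.38, 0.0182) and Ctnnb1 (-0.27, 0.0495). In that fit 34.6% of all genes were called, against 17.2% with all libraries.

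Markers moved in this comparison too, with 5 of 8 PGC markers higher, led by Nanos3 (log2 fold change 1.02) and Dppa3 (0.84), and with Pdgfra (-1.29), Gata6 (-1.08) and Cubn (-1.07) lower, and their part in these results was not tested.

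These 4 calls were recomputed with the offsets and without single libraries. With the offsets, Lrp6 had a log2 change of -0.32 (adjusted p = 0.0990), Apc of -0.30 (0.139) and Dvl1 of 0.16 (0.275), and only Dvl2 was called of the 30 members (0.29, adjusted p = 0.0295), against 6.21% of all genes tested in that fit. All 4 calls were lost without BV- NRF1 OE replicate 3 (adjusted p = 0.0595 to 0.0962), either BV+ Ctrl library (0.0637 to 0.0786) or either BV- Ctrl library (0.117 to 0.326), and those of Lrp6 and Apc also without either BV+ NRF1 OE library (0.0537 to 0.0611). By the study's threshold 2 members were higher and 3 were lower, against 16% of all genes tested (5.73% higher and 10.3% lower), and with the offsets 0 passed it. Those not yet given were Wnt7b (log2 fold change 1.43, SE 0.581, adjusted p = 0.0942), Wnt5b (0.77, SE 0.332, adjusted p = 0.111) and Wnt5a (-0.69, SE 0.284, adjusted p = 0.0981). Wnt7b was at 1.93, 3.09 and 0.533 CPM with NRF1 OE and at 0.693 and 0.641 CPM in Ctrl, so that replicate 3 lay below both Ctrl libraries, and its log2 change was 0.85 without replicate 2. That of Wnt5b was 0.39 without BV- Ctrl replicate 1 and 1.33 without BV- Ctrl replicate 2. With the offsets the changes were 1.05 for Wnt7b (adjusted p = 0.248), 0.37 for Wnt5b (0.482) and -0.37 for Wnt5a (0.480). The members' median log2 fold change was 0.17, against 0.01 for all genes tested, and with the offsets it was 0.0065 against -0.0011.

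**Figure D3:**
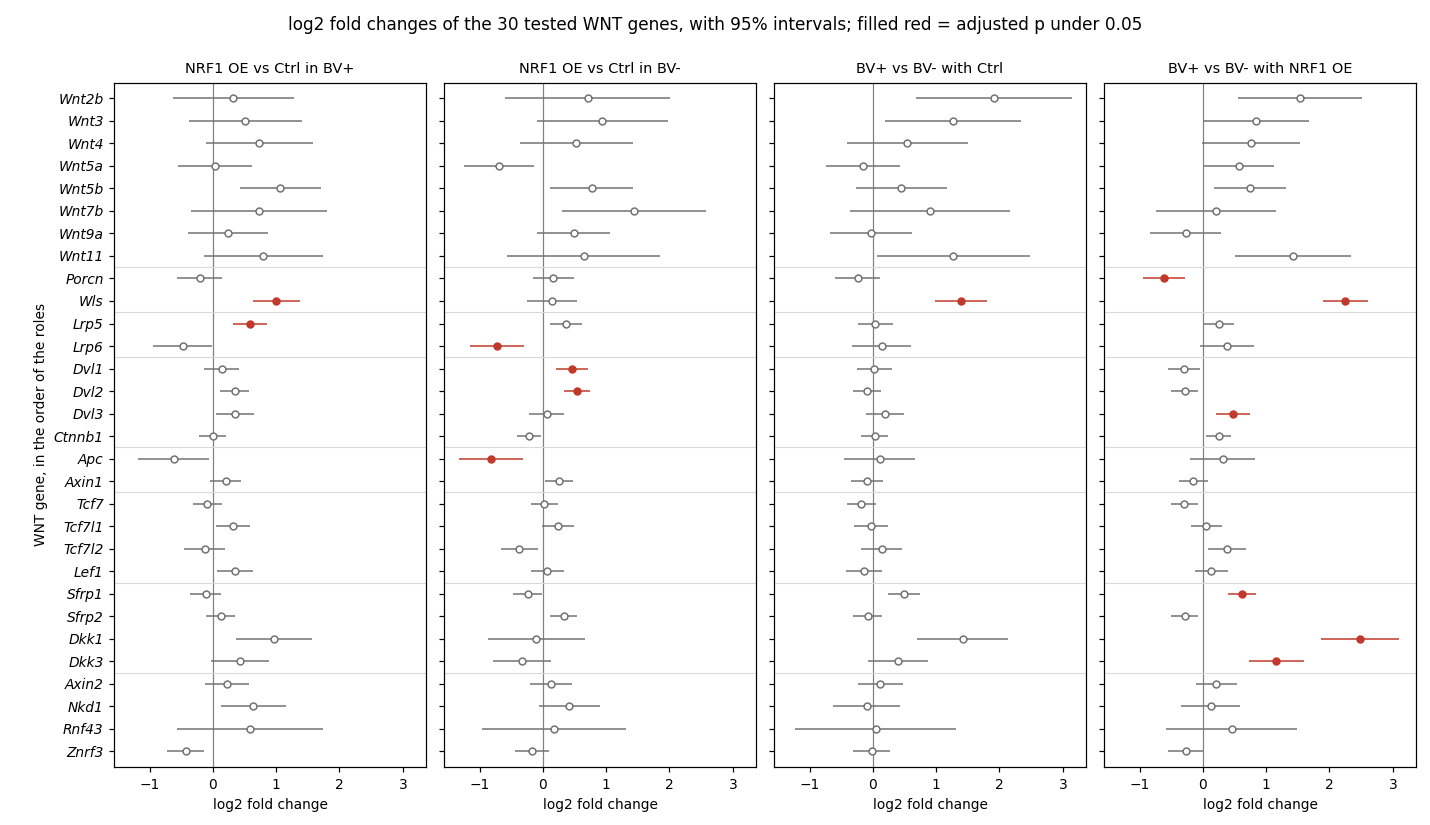
log2 fold changes of the 30 tested WNT genes in 4 comparisons, ordered by role; bars are 95% intervals and filled red points have an adjusted p under 0.05 by edgeR. Wls is called in 3 of the 4 panels, and Dkk1, Dkk3 and Sfrp1 only in the panel for BV+ versus BV- cells with NRF1 OE.

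The tested members had a higher median transcript GC content than all genes tested, but the roles differed. The members' median was 53.9%, beside 49.8% over all genes tested, and the ligands' median was 56.5%. It was 56.2% for the Dishevelled genes with Ctnnb1 and 53.9% for the feedback targets, but 48.6% to 50.9% for the other roles. Across the 30 tested members the Spearman correlation between GC content and the log2 fold change with NRF1 OE was 0.328 in BV+ and 0.777 in BV- cells, and over 14313 genes it was 0.523 and 0.672. These values describe genes that share their libraries and carry no test. Apc (44.3%) and Lrp6 (46.0%) were among the members of lowest GC content, and Dvl1 (59.3%) and Wnt7b (59.4%) among the highest, whereas Wls (42.0%), the lowest of the tested members, was higher with NRF1 OE in BV+ cells, against that trend.

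**Figure D4:**
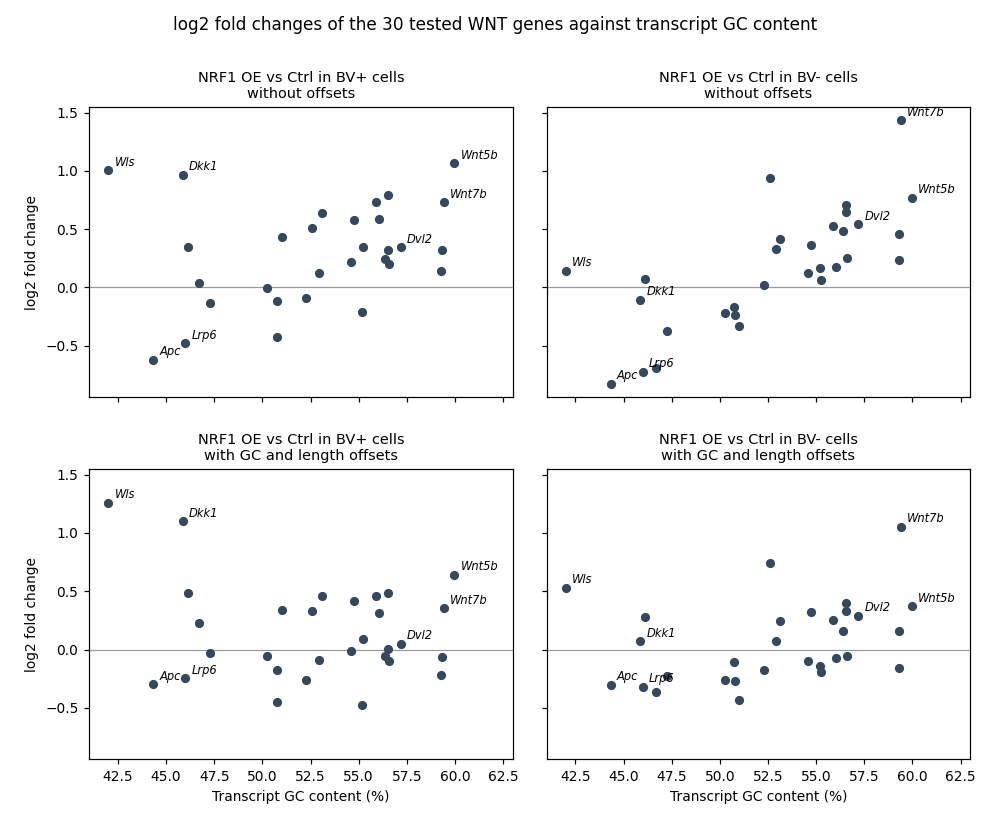
log2 fold change with NRF1 OE (y axis) against transcript GC content in percent (x axis) for the 30 tested WNT genes, in BV+ and BV- cells, without and with GC content and length offsets; each point is 1 gene. In BV- cells without offsets, Apc and Lrp6 lie at the low end and Wnt7b at the high end of the trend, and Wls keeps its difference in BV+ cells with the offsets.

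The difference between the NRF1 OE effects in BV+ and BV- cells was tested directly. By edgeR, 0 of 30 members and 0 (0%) of all genes tested were called, while 2 members and 5.51% of all genes had an unadjusted p under 0.05. These were Wls (difference of log2 fold changes 0.86, SE 0.274, adjusted p = 0.674) and Dkk3 (0.77, SE 0.331, adjusted p = 0.869, and 0.49 without BV+ NRF1 OE replicate 2), and both also met the study's threshold, as did 4.48% of all genes (3.56% higher and 0.917% lower). The Wls effect was therefore not shown to differ between the populations.

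Feedback targets, which rise when β-catenin signalling is active, were not called in any comparison when all libraries were used without offsets. Of the 5, 4 were tested, and 1.12% to 17.2% of all genes were called in the comparisons of groups. At such shares, 0 calls among 4 genes cannot tell whether signalling differed. With NRF1 OE in BV+ cells, 3 of them had a positive and 1 a negative log2 fold change. Nkd1 passed the study's threshold there (0.64, adjusted p = 0.125, edgeR). Nkd2, among the other genes below, was called as higher with NRF1 OE in BV- cells. Axin2, the most widely used of these readouts, was at 9.89 and 8.11 CPM in BV+ NRF1 OE, 7.86 and 7.60 in BV+ Ctrl, 6.92, 8.47 and 7.94 in BV- NRF1 OE and 7.37 and 6.89 in BV- Ctrl libraries. Its values stayed between 6.89 and 9.89 CPM. Znrf3, a ubiquitin ligase that removes Frizzleds, was at 16.3 and 16.8 CPM in BV+ NRF1 OE and at 20.2 and 24.2 CPM in BV+ Ctrl libraries (log2 fold change -0.43, SE 0.149, adjusted p = 0.0867, edgeR). It was called as lower with the offsets (-0.45, 0.0362). Between the NRF1 OE fractions Znrf3 was also called as lower with the offsets (-0.49, adjusted p = 0.00853). Rnf43, its paralogue, had only 4 to 13 counts in a library. Sp5 was at 13 and 2 counts in BV+ NRF1 OE libraries and at 0 to 3 counts in the others, below the filter.

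Of the core of the pathway, Ctnnb1, Axin1 and the TCF/LEF factors gave no call with all libraries and no offsets. Ctnnb1 had a log2 change of -0.00 (SE 0.108) with NRF1 OE in BV+ cells and -0.22 (SE 0.0982, adjusted p = 0.121, edgeR) in BV- cells, and the differences between fractions were 0.03 (SE 0.108) with Ctrl and 0.25 (SE 0.0981, adjusted p = 0.122) with NRF1 OE. Axin1, the scaffold of the destruction complex, was between 73.5 and 109 CPM in all libraries, and its largest log2 fold change was 0.26 (SE 0.116, adjusted p = 0.126), with NRF1 OE in BV- cells. The TCF/LEF factors, through which β-catenin reaches DNA, gave 0 calls among 4 genes in each comparison by edgeR and no offsets. Of all genes tested, 1.12% to 17.2% were called in the comparisons of groups. With the offsets Lef1 was higher with NRF1 OE in BV+ cells (0.49, adjusted p = 0.0341) and Tcf7 was lower in BV+ than in BV- NRF1 OE cells (-0.26, 0.0313), as it was without BV- NRF1 OE replicate 1 (-0.36, 0.0295). Tcf7 was between 93.2 and 126 CPM in all libraries, and Tcf7l1, a repressor in PSCs, between 118 and 163 CPM. Lef1 and Tcf7l2 were lower, at 18.0 to 23.8 CPM and at 11.6 to 19.8 CPM.

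Of 66 other WNT pathway genes, 54 were tested. Between BV+ and BV- cells, 11 were higher and 0 lower with NRF1 OE, and 2 were higher and 0 lower with Ctrl. Of all genes tested, 9.9% were higher and 3.85% lower with NRF1 OE, and 1.1% higher and 0.0237% lower with Ctrl. Frzb, a secreted Frizzled-related antagonist like Sfrp1, was at 16.8 and 7.24 CPM in BV+ NRF1 OE, 4.59 and 4.04 in BV+ Ctrl, 0.662 to 0.958 in BV- NRF1 OE and 0.126 and 0.481 in BV- Ctrl libraries. It was higher in BV+ cells with NRF1 OE (log2 fold change 3.92, SE 0.396, adjusted p = 6.21e-05, edgeR) and with Ctrl (3.74, SE 0.562, adjusted p = 0.00836), where the BV- Ctrl libraries had only 2 and 9 counts. Prickle1, of the planar cell polarity branch, was at 36.0 and 30.6, 20.1 and 19.9, 5.03 to 6.48, and 3.97 and 5.77 CPM in the same order. Its log2 fold change was 2.55 (SE 0.170, adjusted p = 4.4e-06) with NRF1 OE and 2.03 (SE 0.198, adjusted p = 0.000892) with Ctrl.

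Sp8 (log2 fold change 1.63, adjusted p = 0.00866, edgeR) and Bcl9l, a β-catenin cofactor (1.41, adjusted p = 6.53e-05), were also higher in BV+ NRF1 OE cells. With NRF1 OE against Ctrl, 6 of the other genes were higher and 0 lower in BV+ cells, against 6.24% and 1.78% of all genes tested. Among those called with a mean of at least 1 CPM, the largest changes were those of Frzb (1.48, adjusted p = 0.0382), Bcl9l (0.87, 0.0160), Celsr2 (0.79, 0.0473) and Ptk7, a WNT co-receptor of the polarity branch (0.75, 0.0273). In BV- cells 5 were higher and 4 lower, against 10.2% and 6.98% of all genes tested. By the same limit the largest changes were those of Sfrp4 (-0.79, 0.0338), Ptk7 (0.73, 0.0317), Nkd2 (0.58, 0.0451) and Tnks2, a poly-ADP-ribosyltransferase that turns over Axin (-0.56, 0.0421). The effects on these other genes are given without offsets. All 10 Frizzleds were tested, and 6 were higher in BV+ than in BV- NRF1 OE cells and 1 in Ctrl cells, against 9.9% and 1.1% of all genes tested. With NRF1 OE against Ctrl, 3 Frizzleds were higher in BV+ cells, against 6.24% of all genes tested. In BV- cells 1 was higher and 1 lower, against 10.2% and 6.98%.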

How the data were processed

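RNA-seq was performed by the authors on poly(A) RNA (2 × 150 bp; the strandedness is not given in the sources used here). Reads were mapped to GRCm39 with HISAT2 2.0.1 and counted per gene with HTSeq 0.6.1. The authors deposited raw counts, not normalized, and FPKM, scaled to gene length and depth, for each library. Counts were tested here with edgeR 4.0.16 (R 4.3.3): filterByExpr kept 16903 of 56691 genes, TMM factors were used, and 1 quasi-likelihood fit covered 4 groups and 9 libraries, with 2-sided F tests and Benjamini-Hochberg adjustment over all genes tested; a call is an adjusted p under 0.05. The methods name DESeq2 and TMM without the design; DESeq2 1.42.0 was an alternative. CPM use TMM-scaled library sizes, and FPKM serve only for levels between genes. Intervals are 1.96 SE. The scripts were tested on simulated data.

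Members and lists were chosen with earlier results of these data known. Named with tests are members called or past the study's threshold and the member of highest mean FPKM in each role; other pathway genes are named up to 4 in a comparison, by absolute log2 fold change, with a mean of at least 1 CPM. Samples were grouped by their titles, which also number the replicates. The study calls them biological replicates; no culture dates are given, so p-values measure the spread between these libraries. Same-numbered libraries did not deviate together in all pairs of groups (correlations from -0.295 to 0.243), so numbers were not used as pairs. Libraries of a group differed by more than sampling noise (chi-square per degree of freedom 2.99 to 34.7). GC content and length came from GENCODE on GRCm38 (98.6% of genes tested); no GRCm39 coordinates are given. The genes Dvl1, Dvl2, Dvl3, Ctnnb1 and Apc overlap genes on the opposite strand, as do Wls, Wnt5b and Wnt7b. Other members that do so include Axin1, Axin2, Sfrp2, Tcf7, Lef1, Wnt5a and Wnt11. Since the strandedness is not given, whether reads in such overlaps were assigned by strand is not known.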

Additional observations from a re-analysis of the deposited data

How the results depend on the processing

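Between the NRF1 OE fractions, Wls (log2 fold change 1.97 to 2.29), Dkk1 (2.43 to 2.68), Dkk3 (1.08 to 1.20) and Sfrp1 (0.51 to 0.65) kept their direction and call under DESeq2, other scalings, no filter on low counts, a fit of only the groups compared, the replicate block and the GC content and length offsets. Counts of called members moved more. With NRF1 OE in BV+ cells 2 became 6 without the filter, 8 with only the groups compared and 5 with the offsets, while the share of all genes called went from 8.02% to 10.4%, 26.8% and 12.6%. In BV- cells 4 became 0 with only the groups compared and 1 with the offsets, and the share from 17.2% to 0% and 6.21%. Between Ctrl fractions 1 became 2 without the filter and 3 with only the groups compared, and between NRF1 OE fractions 6 became 12 with the offsets (shares from 1.12% to 1.6% and 5.52%, and from 13.8% to 27%). The cause was not tested. The replicate block, which pairs libraries by number though the numbers were not shown to pair them, gave 0, 0, 1 and 4 calls for NRF1 OE in BV+ and BV- cells, Ctrl fractions and NRF1 OE fractions, and with the offsets 1, 0, 1 and 8. The shares of all genes called were 0.0177%, 0%, 0.716% and 6.29%, and with the offsets 5.79%, 0.012%, 1.16% and 16.4%. Over the 4 Ctrl libraries alone the block gave 4 calls, against 5.11% of all genes tested in that fit. The crossed pairing, chosen after seeing the data, gave 5, against 12.9%. Leaving out 1 library gave 0 (without BV+ NRF1 OE replicate 1 or either BV+ Ctrl) to 8 (without BV- NRF1 OE replicate 2) calls for NRF1 OE in BV+ cells, 0 (without BV- NRF1 OE replicate 3 or any Ctrl library) to 9 (without BV- NRF1 OE replicate 1) in BV- cells, 0 (without BV+ Ctrl replicate 2 or BV- Ctrl replicate 1) to 3 (without BV- NRF1 OE replicate 2) between Ctrl fractions and 4 to 8 between NRF1 OE fractions. In the fits with the most calls, the shares of all genes called were 29.4%, 34.6%, 2.87% and 18.8% in the same order. With all libraries they were 8.02%, 17.2%, 1.12% and 13.8%. A group left with 1 library was assumed to vary like the others. The difference of effects gave 0 calls throughout. With the offsets 6, 8, 6 and 2 of 30 members changed sign in the same order, 0 of them called by edgeR with or without offsets. The sign changes that follow cover only members that, in the same comparison, were called, passed the study's threshold or led their role. Those that changed sign there were all uncalled. With NRF1 OE in BV+ cells they were Ctnnb1 (0.0040 with DESeq2, 0.0040 with its size factors, -0.077 to 0.074 leaving out 1 library), Axin1 (-0.10 with the offsets, -0.10 with offsets and block) and Sfrp2 (-0.092 and -0.092). In BV- cells they were Tcf7 (-0.013 with library size alone, -0.028 with the block, -0.17 with the offsets, -0.23 with offsets and block, -0.030 to 0.090 leaving out 1 library), Porcn (-0.14 with the offsets, -0.28 with offsets and block) and Axin1 (-0.058 and -0.043). Between Ctrl fractions they were Znrf3 (0.0070 with library size alone, 0.00018 without the filter, -0.16 to 0.10 leaving out 1 library), Lrp6 (-0.030 with the offsets, -0.028 with offsets and block) and Ctnnb1 (-0.013 and -0.013). For the difference of effects they were Wnt5b (-0.21 to 0.67) and Axin1 (-0.13 to 0.035), leaving out 1 library. Ligands with few counts limit what these depths can show.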
